A study of Mus musculus with 6 samples.

Results

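The mitochondrial solute carriers of the Slc25 family were followed in mouse hearts 72 h after ischemia-reperfusion (IR). Members were the probes whose platform gene symbol starts with Slc25a, a rule that uses no measured value. It gave 76 of 45281 probes, for 46 of the 19057 genes named on the array. Of these, 49 probes of 34 genes were kept, meaning that they were detected on at least 3 of the 6 arrays (detection p under 0.05). The other 12 genes had no kept probe and got no test.

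Total RNA of hearts from male C57Bl6 mice, wild type in both groups, was measured on Illumina bead arrays, with 1 array for each sample. The IR group (3 arrays, numbered 106, 107 and 886) came from mice whose left anterior descending coronary artery was occluded for 90 min and then reperfused for 72 h, or 3 days. The uninjured group (3 arrays, numbered 109, 110 and 904) came from mice without any operation according to the labels, although the column names of the signal table call them sham. Neither the animals' age nor the number of mice behind the arrays is in the labels, and the spread that the p-values rest on may be technical. Effects of surgery as such and of IR cannot be told apart where controls were not operated on.

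Slc25 proteins span the inner mitochondrial membrane and exchange the substrates, nucleotides and cofactors that the matrix and the cytosol share. A few members lie elsewhere, among them the peroxisomal Slc25a17 and the outer membrane protein Slc25a46. Heart muscle makes nearly all of its ATP in mitochondria and depends on carriers that export ATP, import phosphate, and bring in fatty acids, glutamate and the reducing equivalents of cytosolic NADH.

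Between 18013 and 19243 probes were detected on IR arrays and between 15891 and 17843 on uninjured arrays. The tissue label was borne out by cardiomyocyte markers, of which 7 of 8 had a kept probe and each of these was detected on all 6 arrays; 5 of them fell, Nppa rose and Actc1 was not called. The median log2 fold change of the list was -2.16, with -2.79 for Myh6, -2.83 for Pln, -2.51 for Tnni3 and -2.16 for Ryr2. The summed intensity of the list, in which the Nppa, Myl2 (-0.39) and Actc1 signals were the largest on IR arrays, was 49169 to 52402 on IR arrays and 64345 to 66558 on uninjured arrays. Myl2 had the same log2 value of 14.21 on all 3 uninjured arrays (SD 0), which Nppa also had on IR array 107. Quantile normalization gives signals of equal rank the same value, so the Myl2 decrease, and the sums with it, may be understated. All 9 kept macrophage and monocyte markers (of 10) rose, their sum being 16628 to 18099 on IR arrays and 2118 to 2536 on uninjured arrays. Ccr2, 1 of the 9, was detected on no uninjured array, and the lower bound of its increase was 1.57-fold. All 5 neutrophil markers rose as well, with sums of 2437 to 3857 on IR arrays and 25.3 to 62.4 on uninjured arrays. Cxcr2 and Retnlg were detected on no uninjured array, and the lower bounds of their increases were 2.85-fold and 1.14-fold. S100a8, S100a9 and Csf3r were each detected on 1 uninjured array. None of the 5 would have been kept without the IR arrays, and their uninjured sums rest mostly on signals not above background. Of 6 fibroblast markers 5 were called higher, among them Col1a1 (3.86) and Col3a1 (3.68), and Dcn was not called (0.006). The median of the list was 0.76. Postn, 1 of the 5, was detected on no uninjured array. Its IR mean did not exceed the bound set by the lowest signals detected on those arrays. Sums of the list were 11544 to 11839 on IR arrays and 8087 to 8285 on uninjured arrays. Dcn, the largest signal of the list in both groups, makes up most of these sums. The 3 kept markers of dividing cells (of 5), Top2a, Cdk1 and Birc5, rose, with sums of 1215 to 1274 on IR arrays and 60.9 to 83.8 on uninjured arrays. The adipocyte markers Adipoq and Fabp4 and the skeletal muscle markers Myh1 and Myh4 were detected on 0 of 6 arrays. Cidea, the 1 kept brown adipocyte marker of 2, was detected on all 6 arrays and fell by 1.26 ± 0.08. The endothelial marker Kdr was also detected on 0 of 6 arrays, while Pecam1, Cdh5 and Tek were detected on all 6. A silent probe thus does not show that a cell type is missing. Tnnt3, the 1 kept skeletal muscle marker of 4, was detected on all IR arrays and no uninjured array. Tnnt3 was thus kept through the IR group alone, and was at least 2.09-fold higher after IR. In RNA of whole hearts, fewer cells of a type and less RNA per cell cannot be told apart, and the part of these markers in the carrier changes was not tested.

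Values below are log2 intensities after background correction, an added offset of 16 and quantile normalization, and fold changes are IR over uninjured on that scale, which understates changes of dim genes. Calls are at a Benjamini-Hochberg adjusted p under 0.05 in limma, adjusted over all 10204 genes with a kept probe. Among the 34 Slc25 genes with a kept probe, 18 fell (52.9%), 9 rose (26.5%) and 7 were not called, so 27 (79.4%) were called. Over all genes tested, 34.5% fell, 39.4% rose and 73.9% were called either way. A decrease of at least 2-fold was called in 10 Slc25 genes (29.4%), against 13.6% of all genes, and an increase of that size in 2 (5.88%), against 15.0% of all genes. The median log2 fold change was -0.40 over the 34 genes and 0.05 over all genes. The 2 groups of arrays did not overlap in 27 of the 34 genes (79.4%), against 76.7% of all genes. Slc25a42 and Slc25a46 were detected on no IR array and Slc25a43 on no uninjured array, so these 3 passed the detection filter through 1 group alone. At probe level, 27 of the 49 kept probes fell and 12 rose, against 33.1% and 36.5% of all 18197 kept probes, 69.6% of which were called either way.

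The split of calls moved with the scaling of the arrays. With every array brought to 1 median of all probes (all-probe median scaling), 16 Slc25 genes rose and 14 fell, and the median of all genes shifted to 0.52. With 1 median of the kept probes in its place (kept-probe median scaling), 5 rose and 19 fell, and the median of all genes was -0.14. The 10 decreases of at least 2-fold stayed called as decreases under every alternative in which they were tested.

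**Figure D1:**
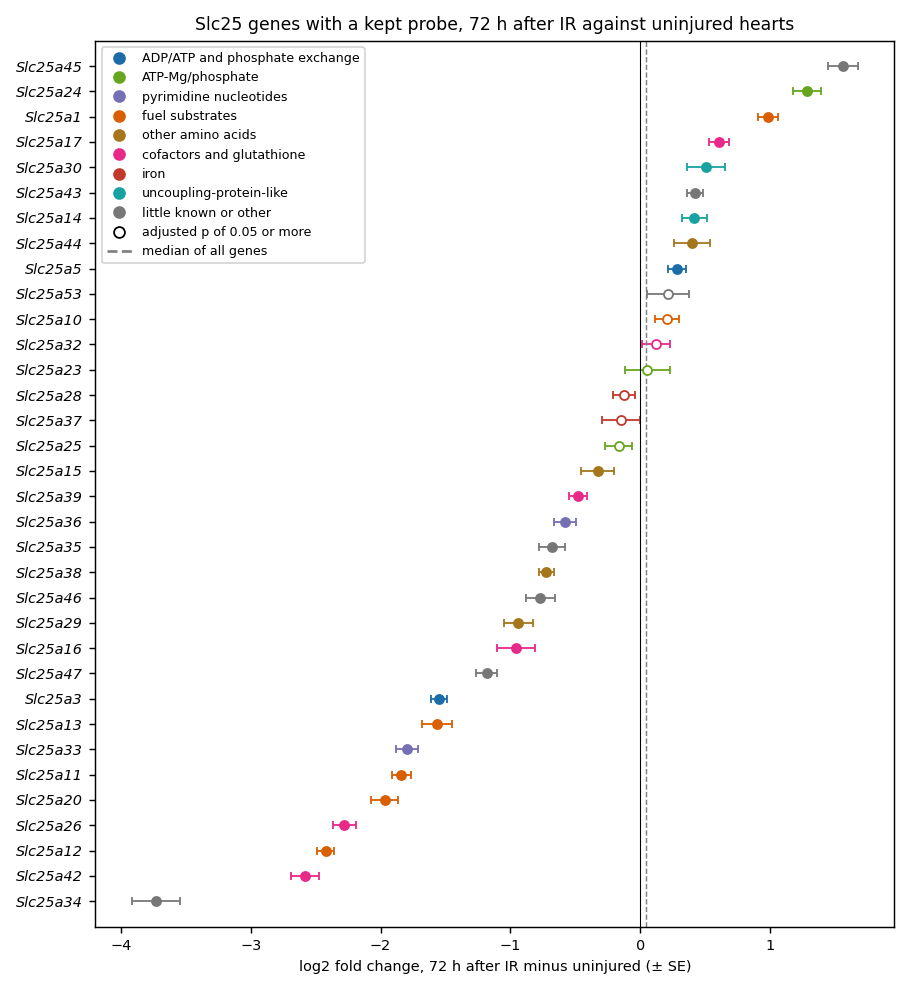
Log2 fold change (72 h after IR minus uninjured, ± SE, n = 3 arrays per group) of the 34 Slc25 genes with a kept probe, in order of size and coloured by what they carry; open circles have an adjusted p of 0.05 or more, and the dashed line is the median of all genes at 0.05. Values run from 1.56 for Slc25a45 to -3.73 for Slc25a34, with 18 called decreases and 9 called increases.

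Carriers of ADP, ATP and phosphate went apart. Slc25a5, the ADP/ATP carrier that most tissues express, was slightly higher after IR, while Slc25a3, which brings phosphate into the matrix for ATP synthesis, was nearly 3 times lower. Slc25a5 had log2 intensities of 12.35, 12.40 and 12.34 on IR arrays, against 12.00, 12.16 and 12.09 on uninjured arrays. Each IR array lay above each uninjured array, by a small margin. The log2 fold change was 0.28 ± 0.07 (SE, n = 3 per group), or 1.21-fold, with an adjusted p of 0.00784 in limma. Under kept-probe median scaling the Slc25a5 value turned to -0.13 (adjusted p = 0.184), and under all-probe median scaling it was 0.53. Slc25a3 had log2 intensities of 11.30, 11.38 and 11.31 on IR arrays, against 12.88, 12.83 and 12.92 on uninjured arrays. Groups were far apart and arrays within a group close together. Slc25a3 fell by 1.55 ± 0.06 on the log2 scale, which is 2.93-fold lower, with a limma adjusted p of 7.25e-07, and its second kept probe gave -1.61.

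Slc25a4, the ADP/ATP carrier known as the chief form in heart and skeletal muscle, had a single probe that was detected on 1 of 6 arrays. Its raw signals were 86.3, 89.3 and 97.3 on IR arrays and 84.7, 80.8 and 81.5 on uninjured arrays, beside medians over all probes of 89.9 to 91.9 on IR arrays and 83.2 to 86.1 on uninjured arrays. The array gave no usable level of Slc25a4 in either group, and Slc25a5 could not be set against it. Slc25a31, an ADP/ATP carrier best known from testis, was detected on 0 of 6 arrays by either of its probes. Slc25a5 and Slc25a4 are close in sequence, and whether the Slc25a5 probe also binds Slc25a4 transcripts was not tested.

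Slc25a3 was therefore taken in place of Slc25a4 as the carrier to set the others against, a replacement chosen once the values were known. On each array the log2 value of Slc25a3 was subtracted from that of every gene and the groups were compared in limma, so that the test is of a difference between changes. The log2 ratio of Slc25a5 to Slc25a3 rose by 1.83 after IR (adjusted p = 1.46e-07 over 10203 genes), a 3.56-fold shift. This difference was 1.79 to 1.89 when any single array was left out. It was 1.82 under both median scalings. These 2 must give the same value, because the 1 constant that each scaling takes from an array cancels in a within-array ratio. Of the 33 other Slc25 genes, 7 (21.2%) fell further than Slc25a3, against 4.77% of all genes, and 25 (75.8%) fell less or rose, against 90.8% of all genes, 95.5% of which were called either way. One of the 25, Slc25a46, was not above background on any IR array, so its decrease is a bound and its place relative to Slc25a3 is not known. The 7 were Slc25a34, Slc25a42, Slc25a12, Slc25a26, Slc25a20, Slc25a11 and Slc25a33, with relative changes of -2.18 to -0.25 (limma adjusted p of 0.0305 at most). Slc25a13, detected on 2 of 3 IR arrays, changed by -0.02 relative to Slc25a3 (adjusted p = 0.897).

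Partners of the ADP/ATP carriers at the mitochondrial membranes were divided too. Of 8 with a kept probe, 6 fell and 1 rose (median log2 fold change -1.01). Ckmt2, the mitochondrial creatine kinase that takes up exported ATP, fell by 2.59 ± 0.08. Ppif, the cyclophilin of the permeability transition, fell by 1.70 ± 0.06 and Vdac1, an outer membrane channel, by 1.06 ± 0.07. Vdac2 rose, by 0.39 ± 0.06. The ATP synthase genes Atp5a1 and Atp5b had log2 fold changes of -1.85 and -0.27, both called in limma (adjusted p of 0.00708 at most).

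**Figure D2:**
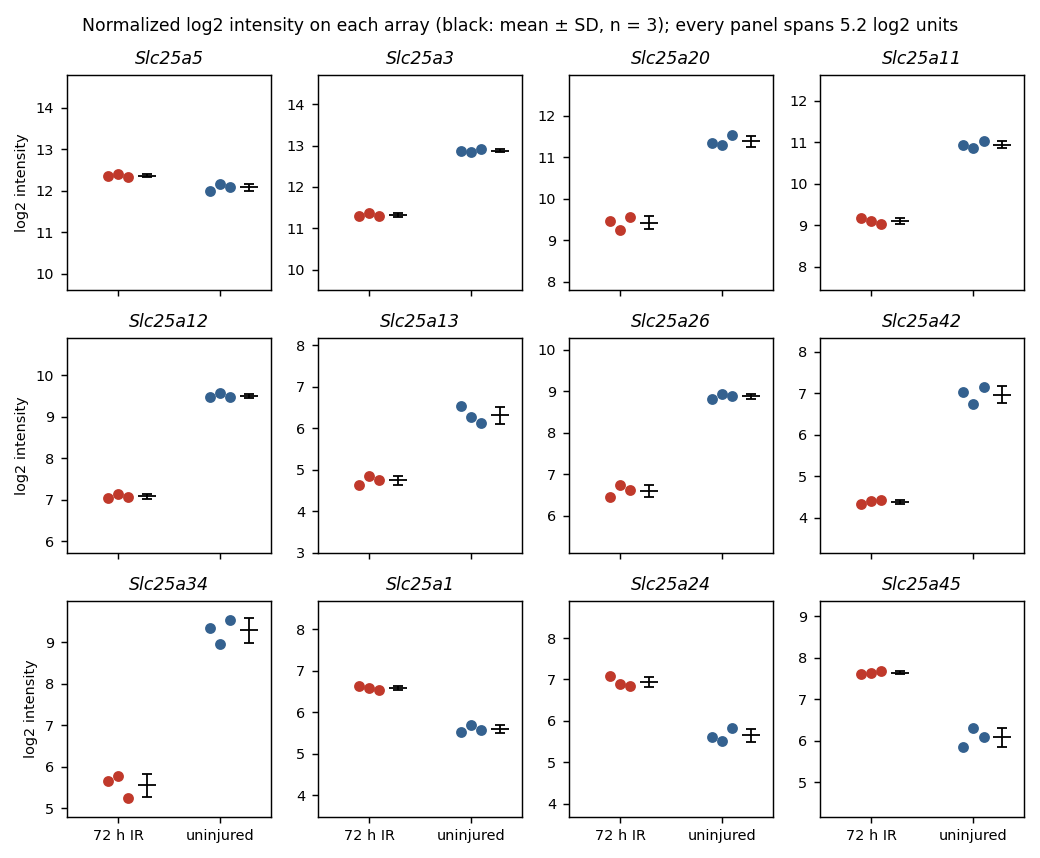
Normalized log2 intensity of 12 Slc25 genes on each array, with 72 h IR arrays left and uninjured arrays right; points are arrays and the black bar is the mean ± SD (n = 3). No gene shown has overlapping groups, the gap being narrowest for Slc25a5 and widest for Slc25a34, and the panels share 1 span of the y axis but not its origin.

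Carriers of fuel substrates held 4 of the 10 decreases of at least 2-fold. Of 6 with a kept probe, 4 fell, Slc25a1 rose and Slc25a10 was not called. Slc25a20, the carnitine-acylcarnitine carrier through which long-chain fatty acids enter the matrix, had log2 intensities of 9.46, 9.25 and 9.55 on IR arrays, against 11.34, 11.29 and 11.54 on uninjured arrays. Every IR array was more than 1 unit below the lowest uninjured array. The decrease of 1.97 ± 0.11 on the log2 scale was 3.91-fold, with a limma adjusted p of 2.29e-06. A second kept probe gave -2.31, and the third was detected on 0 of 6 arrays. All 4 measured genes of the carnitine system fell with it, among them Cpt1b, the muscle carnitine palmitoyltransferase of the outer membrane (-2.83 ± 0.08), Cpt2, its counterpart on the matrix side (-2.30 ± 0.07), and Slc22a5, the carnitine importer of the plasma membrane (-1.35 ± 0.07).

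The malate-aspartate shuttle, which moves the reducing equivalents of cytosolic NADH into mitochondria, uses the oxoglutarate-malate carrier Slc25a11 and an aspartate-glutamate carrier, Slc25a12 or Slc25a13. Slc25a12 (aralar) is the form known from heart, muscle and brain, and Slc25a13 (citrin) the one known from liver. Slc25a12 had log2 intensities of 7.05, 7.15 and 7.06 on IR arrays, against 9.48, 9.57 and 9.48 on uninjured arrays. IR arrays were thus below uninjured arrays by many times their spread. Slc25a12 fell by 2.42 ± 0.07 on the log2 scale, or 5.36-fold, with the lowest adjusted p of any Slc25 gene in limma (1.75e-07). Its dimmer kept probe gave -1.41.

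Slc25a13 was dim, with log2 intensities of 4.63, 4.85 and 4.75 on IR arrays, against 6.53, 6.27 and 6.13 on uninjured arrays. It was detected on 2 of 3 IR arrays by the probe used. The groups did not overlap, and Slc25a13 fell by 1.57 ± 0.12 (adjusted p = 1.33e-05 in limma), a value that was -0.65 without background correction. Slc25a11 had log2 intensities of 9.18, 9.10 and 9.04 on IR arrays, against 10.93, 10.87 and 11.03 on uninjured arrays. It fell by 1.84 ± 0.08, or 3.58-fold (limma adjusted p = 6.80e-07), and its other kept probes gave -2.27 and -2.57, so 3 probes put it in the same direction. The shuttle enzymes Mdh1, Mdh2 and Got2, malate dehydrogenases and an aspartate aminotransferase, all fell, with log2 fold changes of -2.17, -1.89 and -1.25 (SE of 0.07 at most).

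Slc25a10, the dicarboxylate carrier that exchanges malate or succinate for phosphate, did not follow Slc25a11. Its log2 intensities were 6.24, 6.02 and 5.94 on IR arrays, against 5.84, 5.87 and 5.86 on uninjured arrays. The groups did not overlap, but the difference of 0.21 ± 0.09 was not called (limma adjusted p = 0.0736). It was called without IR array 886 (0.27, adjusted p = 0.0431) and under all-probe median scaling (0.82). Slc25a1, which exports citrate for lipid synthesis in the cytosol, had log2 intensities of 6.63, 6.59 and 6.53 on IR arrays, against 5.52, 5.70 and 5.57 on uninjured arrays. All IR arrays lay above all uninjured arrays. Slc25a1 rose by 0.98 ± 0.07, or 1.98-fold (limma adjusted p = 1.35e-05), and by 0.35 on its dimmer kept probe. Its value was 0.49 with uncorrected background and 1.57 under all-probe median scaling. Acly, which splits exported citrate in the cytosol, rose as well (0.93 ± 0.07), whereas Cs, the citrate synthase of the matrix, fell (-1.77 ± 0.08). The glutamate carriers Slc25a18 and Slc25a22 and the oxodicarboxylate carrier Slc25a21 had no kept probe.

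Transporters of adenine and pyrimidine nucleotides changed unequally. Slc25a24, a calcium-regulated carrier that trades ATP-Mg for phosphate, had log2 intensities of 7.07, 6.88 and 6.85 on IR arrays, against 5.62, 5.50 and 5.82 on uninjured arrays. The groups were about 1 unit apart at their nearest. Slc25a24 rose by 1.28 ± 0.11, or 2.44-fold (limma adjusted p = 2.22e-05), and 1.32 on a second kept probe, with a value of 0.69 without background correction. Its relatives Slc25a25 (-0.17 ± 0.11, adjusted p = 0.192) and Slc25a23 (0.05 ± 0.17, adjusted p = 0.795) were not called, and Slc25a41 had no kept probe. Slc25a23 was near background, with 2 of 3 arrays in each group detecting it. Of the measured genes of the calcium uniporter, Micu2, a regulatory subunit, fell (-0.51 ± 0.10) and Mcu, the pore, was not called (-0.13 ± 0.12). Under all-probe median scaling Slc25a25 turned to 0.48 (adjusted p = 0.00994), and under kept-probe median scaling Slc25a23 turned to -0.50 (adjusted p = 0.0192). Slc25a33 and Slc25a36, the pyrimidine nucleotide carriers, both fell. For Slc25a33 the decrease was 1.80 ± 0.09, or 3.48-fold (limma adjusted p = 1.30e-06), and for Slc25a36 it was 0.58 ± 0.09, although Slc25a36 turned to 0.07 under all-probe median scaling (adjusted p = 0.629). Of 3 kept Slc25a36 probes, 2 fell and the third gave -0.28 (adjusted p = 0.216 at probe level).

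Promoter windows were available from RefSeq (GRCm38.p6) for 36 of the 46 genes, each of 300 bases, 250 before the start of the gene and 50 after it. The element of the estrogen-related receptors, TNAAGGTCA, searched on both strands, was in the windows of none of the 36 genes, against 1.43% of all 27025 genes of the table, and the same held for the palindromic element of NRF1, against 1.07%. No match says only that these letters are not in these windows. The E-box CACGTG, which reads the same on both strands, was in 7 of 36 Slc25 genes (19.4%), against 8.09% of all genes. It was in windows of genes that fell (4 of 15) and of genes that rose (2 of 8), so its presence did not go with 1 direction. The windows of a carrier that rose (Slc25a1, chr16:17928170-17928469) and of a pair that fell (Slc25a13, chr6:6217124-6217423, and Slc25a33, chr4:149774218-149774517), all on the minus strand, are shown for this reason, 5′ to 3′ with the E-box in capitals.
Slc25a1: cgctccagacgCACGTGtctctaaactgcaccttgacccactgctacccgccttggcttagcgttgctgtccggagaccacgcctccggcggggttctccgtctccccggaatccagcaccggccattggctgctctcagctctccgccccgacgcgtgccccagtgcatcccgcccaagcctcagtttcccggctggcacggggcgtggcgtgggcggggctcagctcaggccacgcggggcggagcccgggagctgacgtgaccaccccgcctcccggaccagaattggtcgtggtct
Slc25a13: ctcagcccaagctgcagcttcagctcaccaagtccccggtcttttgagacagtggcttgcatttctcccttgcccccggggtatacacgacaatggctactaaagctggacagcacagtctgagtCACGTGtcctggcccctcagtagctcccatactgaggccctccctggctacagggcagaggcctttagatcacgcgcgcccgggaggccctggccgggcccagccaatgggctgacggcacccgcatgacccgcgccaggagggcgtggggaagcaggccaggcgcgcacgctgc
Slc25a33: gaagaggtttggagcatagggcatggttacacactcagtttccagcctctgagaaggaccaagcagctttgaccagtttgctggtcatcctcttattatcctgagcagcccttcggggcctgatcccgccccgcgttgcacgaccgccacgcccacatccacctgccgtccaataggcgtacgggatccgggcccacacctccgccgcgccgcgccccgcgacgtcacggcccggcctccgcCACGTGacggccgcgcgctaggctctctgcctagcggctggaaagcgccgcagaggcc
Counted from the start of the gene, the E-box begins at position -239 of Slc25a1, -125 of Slc25a13 and -8 of Slc25a33. A match of these letters is a description and not evidence of a bound factor.

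Cofactor carriers held 2 of the 10 decreases of at least 2-fold, among 6 with a kept probe of which 4 fell and 1 rose. Slc25a42, which brings coenzyme A into the matrix, had log2 intensities of 4.34, 4.41 and 4.42 on IR arrays, against 7.03, 6.74 and 7.14 on uninjured arrays. No IR array detected it and every uninjured array did, so the IR level is only a bound. Slc25a42 passed the detection filter through the uninjured group alone, and was at least 5-fold lower after IR. Slc25a26, the carrier of S-adenosylmethionine, the methyl donor, had log2 intensities of 6.45, 6.73 and 6.61 on IR arrays, against 8.83, 8.93 and 8.88 on uninjured arrays. It was detected on all 6 arrays, and its groups were 2 units apart. Slc25a26 fell by 2.28 ± 0.09, or 4.86-fold (limma adjusted p = 5.46e-07).

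Other cofactor carriers changed less. Slc25a16, which has been tied to coenzyme A transport, fell by 0.96 ± 0.15, and Slc25a39, a carrier of glutathione into mitochondria, by 0.48 ± 0.07, with Slc25a39 at 0.13 under all-probe median scaling (adjusted p = 0.303). Slc25a17, the peroxisomal carrier of coenzyme A and adenine dinucleotides, had log2 intensities of 8.18, 8.33 and 8.30 on IR arrays, against 7.58, 7.76 and 7.65 on uninjured arrays. It rose by 0.61 ± 0.08, or 1.52-fold (limma adjusted p = 0.000279), with no overlap of the groups and a value of 1.22 under all-probe median scaling. Slc25a32, linked to folate and FAD transport, was not called (0.12 ± 0.11, adjusted p = 0.326, and 0.70 with an adjusted p of 0.000403 under all-probe median scaling). In the same hearts Mthfd2, a folate enzyme of the matrix, rose by 2.72 ± 0.17 and Shmt2, which feeds serine into that pathway, fell by 0.39 ± 0.08. Slc25a40, the other glutathione carrier, and the NAD carrier Slc25a51 had no kept probe.

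The iron importers (mitoferrins) were not called on the probes used. Slc25a28 (mitoferrin 2) had log2 intensities of 8.73, 8.94 and 8.75 on IR arrays, against 8.86, 8.92 and 9.01 on uninjured arrays, which overlap. Its log2 fold change was -0.12 ± 0.08 (limma adjusted p = 0.216), but 0.44 under all-probe median scaling (adjusted p = 0.00445). Slc25a37 (mitoferrin 1), known from developing red cells, had log2 intensities of 5.82, 5.72 and 6.13 on IR arrays, against 5.80, 6.06 and 6.26 on uninjured arrays. These values overlap as well, and the log2 fold change was -0.15 ± 0.15 (adjusted p = 0.385). A second Slc25a37 probe was detected on all IR arrays and on no uninjured array, and so passed the detection filter through the IR group alone. It was at least 1.44-fold higher after IR. Slc25a37 was at 0.46 under all-probe median scaling (adjusted p = 0.00980), and at 0.32 by the mean of both probes, which holds uninjured values of a probe not above background. No direction is given for this gene. Of 5 measured genes of mitochondrial iron and heme, 4 fell, among them Fech, the ferrochelatase (-1.60 ± 0.06), and Alas2, the erythroid enzyme of heme synthesis (-1.65 ± 0.07), while Tfrc, the transferrin receptor, rose (0.70 ± 0.21). Hba-a1, an erythroid marker, fell by 0.93 ± 0.06 in the same comparison.

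Amino acid carriers other than the aspartate-glutamate carriers moved modestly. Slc25a29, a carrier of basic amino acids, fell by 0.94 ± 0.11, with 1 of 3 IR arrays detecting it. Slc25a38, which supplies glycine for heme synthesis, fell by 0.72 ± 0.06 with 3 kept probes in the same direction, and by 0.22 under all-probe median scaling (adjusted p = 0.103). Slc25a44, a carrier of branched-chain amino acids, rose by 0.40 ± 0.14 (adjusted p = 0.0328), a call lost without IR array 106, 107 or 886 and without uninjured array 110 or 904. The value without array 904 was 0.26 (adjusted p = 0.0628). The call was also lost under kept-probe median scaling (0.28, adjusted p = 0.0549), without the detection filter and in the arrays numbered 106 to 110 alone, 8 of 15 alternatives in all. Slc25a15, the ornithine carrier, fell by 0.33 ± 0.12 (adjusted p = 0.0461) with overlapping groups, a call lost when any array but IR array 106 was left out. It lost the call at probe level too (adjusted p = 0.0502), and turned to 0.33 under all-probe median scaling (adjusted p = 0.0447). Of the enzymes around it, Arg2 (mitochondrial arginase) was detected on all IR arrays and no uninjured array. Arg2 thus passed the detection filter through the IR group alone, and was at least 1.61-fold higher after IR. Oat, the ornithine aminotransferase, was not called (-0.14 ± 0.07).

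Uncoupling-protein-like members were a little higher. Slc25a30 had log2 intensities of 5.71, 5.61 and 5.67 on IR arrays, against 5.37, 5.28 and 4.80 on uninjured arrays. It rose by 0.51 ± 0.15 (limma adjusted p = 0.0156), with uninjured array 904 the lowest. The value was 0.33 without that array and also in the arrays numbered 106 to 110 alone. The call was lost without IR array 106 (adjusted p = 0.0512). Slc25a14 rose by 0.42 ± 0.10 and lost its call under kept-probe median scaling (0.20, adjusted p = 0.0931), and Slc25a27 had no kept probe. Ucp3, the uncoupling protein of muscle, belongs to the same family under another name. It was detected on no IR array and was at least 6.19-fold lower after IR. The related outer membrane proteins Mtch1 and Mtch2 went apart, with log2 fold changes of 0.84 ± 0.07 and -0.75 ± 0.09.

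Members of little-known role held both ends of the range. Slc25a34 had log2 intensities of 5.66, 5.76 and 5.24 on IR arrays, against 9.35, 8.96 and 9.54 on uninjured arrays. The lowest uninjured array was more than 3 units above the highest IR array. Slc25a34 fell by 3.73 ± 0.19, or 13.3-fold (limma adjusted p = 1.67e-06), and 28 of all genes (0.274%) had a lower fold change. A dimmer kept probe, detected on no IR array, was at least 2.43-fold lower, and the mean of both, which holds that bound, gave -2.67. Its relative Slc25a35 fell by 0.68 ± 0.10 near background. At the other end, Slc25a45 had log2 intensities of 7.61, 7.64 and 7.68 on IR arrays, against 5.85, 6.31 and 6.08 on uninjured arrays. The IR arrays were close together and all above the uninjured ones. Slc25a45 rose by 1.56 ± 0.12, or 2.95-fold (limma adjusted p = 1.35e-05), a value that was 0.98 without background correction.

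Slc25a43 had log2 intensities of 4.73, 4.70 and 4.70 on IR arrays, against 4.29, 4.26 and 4.34 on uninjured arrays, and no uninjured array detected it. It was called higher (0.42 ± 0.06, adjusted p = 0.000537 in limma), but its IR mean did not exceed the bound set by the lowest detected signals of the uninjured arrays, so no fold is given. Under kept-probe median scaling the value turned to -0.21 (adjusted p = 0.121). Slc25a46, an outer membrane protein involved in mitochondrial shape, was detected on no IR array and was at least 1.49-fold lower. Slc25a47, best known from liver, fell by 1.18 ± 0.08 and by 0.53 without background correction. Slc25a53 was not called (0.21 ± 0.16, adjusted p = 0.267) but passed under all-probe median scaling (0.58, adjusted p = 0.00105), without uninjured array 904 (0.39, adjusted p = 0.0145) and in the arrays numbered 106 to 110 alone (0.32, adjusted p = 0.0441). Under kept-probe median scaling it was at -0.08 (adjusted p = 0.655). Slc25a48 and Slc25a54 had no kept probe, nor had Slc25a2, a second ornithine carrier.

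Changes of carriers with related substrates were then set against each other within each array, for 7 pairs of which 6 had values. With 3 arrays against 3, the exact two-sided permutation test cannot go below p = 0.1, so none of these differences could pass 0.05. In 5 of the 6 pairs the groups did not overlap (exact permutation p = 0.1 each, the smallest possible, and 0.12 after Benjamini-Hochberg adjustment over the 6 pairs). Groups did not overlap in 76.7% of all single genes. No such share is given for ratios of 2 genes, so this count is not read as a result about these pairs. The log2 ratio of Slc25a10 to Slc25a11 shifted by 2.05 toward Slc25a10 after IR, and that of Slc25a24 to Slc25a23 by 1.23 toward Slc25a24. Slc25a23 was detected on 2 of 3 arrays in each group, so the ratio to it rests on values near background. Slc25a29 gained 1.03 on Slc25a20, and Slc25a13 gained 0.86 on Slc25a12, although all of these genes fell. Slc25a29 was detected on 1 of 3 IR arrays and Slc25a13 on 2 of 3. Their decreases may be understated near background, and these gains overstated. The gain of Slc25a13 also depends on the probe. The dimmer Slc25a12 probe had a log2 fold change of -1.41, against -1.57 for the Slc25a13 probe used. By the mean of kept probes the gain was 0.52. Slc25a33 lost ground to Slc25a36, with a shift of -1.22. For Slc25a37 against Slc25a28 the shift was -0.03 with overlapping groups (exact p = 0.9, adjusted 0.9).

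**Figure D3:**
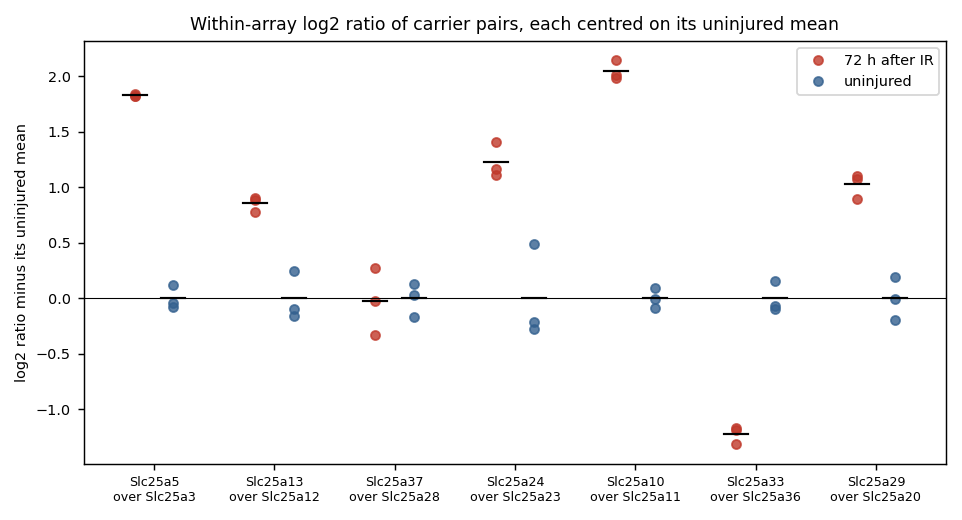
Within-array log2 ratio of carrier pairs, each centred on its mean over the uninjured arrays; red points are 72 h IR arrays, blue points uninjured arrays, and black bars group means (n = 3). Slc25a5 over Slc25a3 (1.83) and Slc25a10 over Slc25a11 (2.05) moved up, Slc25a33 over Slc25a36 moved down, and Slc25a37 over Slc25a28 stayed within its spread.

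Probes of the same gene mostly went the same way. Of 12 Slc25 genes with more than 1 kept probe, 11 had all probes of 1 sign, 10 had the same call on every probe, and none had probes called in opposite directions. The 10 include Slc25a15, of which neither probe was called at probe level (limma adjusted p of 0.0502 and 0.0637). Such shares are not given for all 3819 genes with more than 1 kept probe, so these counts are not read as a result about the family. Slc25a37 was the gene with both signs, and Slc25a36 and Slc25a37 were those with unlike calls. Among probes detected on all 6 arrays, those of Slc25a12 differed by 1.01 log2 units in their fold changes, those of Slc25a11 by up to 0.73 and those of Slc25a3 by 0.06.

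**Figure D4:**
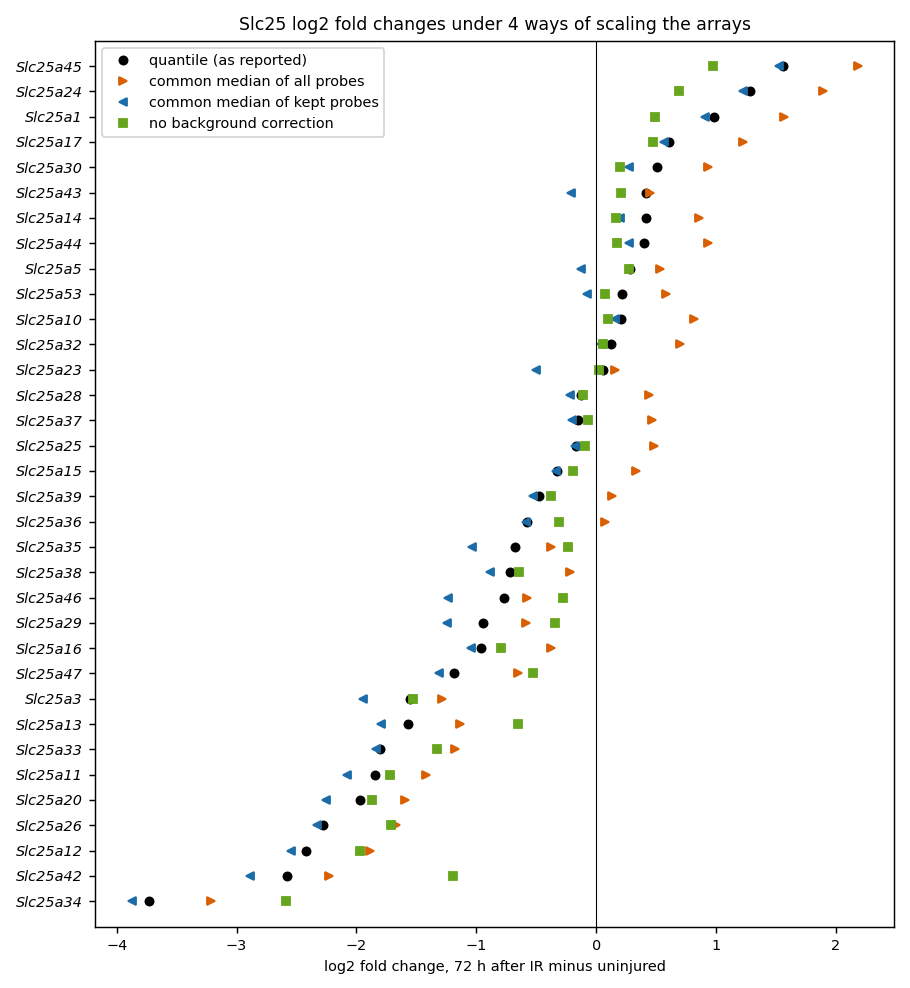
Log2 fold change (72 h after IR minus uninjured) of the 34 Slc25 genes under quantile normalization (black), all-probe (orange) or kept-probe (blue) median scaling, and quantile normalization without background correction (green). The decreases of Slc25a34, Slc25a42, Slc25a12 and Slc25a26 stay left of 0 in every setting shown, while Slc25a5 lies at 0.53 under all-probe and -0.13 under kept-probe median scaling.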

How the data were processed

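Both deposited tables hold arrays of the same samples. Per the file headers, the signal table has a bead intensity and a detection p-value for every probe and array. The tool named is GenomeStudio 2010.3, per the submitters' processing notes, and the intensities are raw, as judged from their values. The authors' deposited processed intensities, quantile-normalized and linear as judged from the values, served as an alternative. Genes were named by the array platform's annotation (1 symbol for 34885 probes, several for 18, none for 10378), updated by Entrez identifier in RefSeq (GRCm38.p6, names only). Old names may remain.

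Values were computed with limma 3.58.1 in R 4.3.3: neqc (normexp background from detection p-values, offset 16, quantile normalization, log2), probes detected on at least 3 arrays (18197), and per gene the kept probe with the highest mean. lmFit and eBayes compared the groups without a block, with adjustment over all genes. The number of arrays limits precision. A gene undetected on all arrays of 1 group is given as a bound ("at least"), from the higher, per array, of its own value and the lowest detected signal. The members, lists and roles were chosen with earlier results of these data known. Values on every array were given for carriers of main roles and for the 6 largest non-overlapping increases and decreases. The planned comparison with Slc25a4 was not made, since its probe was not kept; Slc25a3 replaced it. The fit was tested on simulated data. Column names carry no replicate number, so arrays go by the numbers in them. Figures used Python 3.11.15 with matplotlib 3.10.9.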

Additional observations from a re-analysis of the deposited data

How the results depend on the processing

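Of the 34 genes, 24 kept their direction under every one of the 15 alternatives that gave a value for them, and 18 of the 27 called genes kept both direction and call. The count of Slc25 genes called ranged from 25 to 26, of those higher from 7 to 9, of those lower from 17 to 18, and of probes called from 36 to 40 when 1 array was left out; genes called against Slc25a3 ranged from 31 to 32. Higher calls numbered 16 under all-probe median scaling and 5 under kept-probe median scaling. All-probe median scaling turned Slc25a15 (0.33), Slc25a25 (0.48), Slc25a28 (0.44), Slc25a36 (0.073), Slc25a37 (0.46) and Slc25a39 (0.13), and kept-probe median scaling turned Slc25a23 (-0.50), Slc25a43 (-0.21), Slc25a5 (-0.13) and Slc25a53 (-0.078). The mean of kept probes turned Slc25a37 (0.32), and Slc25a23 turned without IR array 106 (-0.05) and without uninjured array 904 (-0.10), its range over the arrays left out being -0.10 to 0.19. The shift of Slc25a37 against Slc25a28, near 0, turned to 0.036 without background correction, 0.023 under both median scalings, 0.034 with the authors' values and 0.44 by the mean of kept probes, and ran from -0.17 to 0.13 over the arrays left out. The Slc25a5 against Slc25a3 value of 1.83 passed in limma but cannot pass the exact permutation test (p = 0.1). Without background correction 15 of the 27 called genes moved by over 1.5 times, as did 15 with the authors' values. All-probe median scaling moved 15 by as much and reversed 3 called genes, and kept-probe median scaling moved 6 and reversed 2. Causes were not tested. No paired analysis was possible because the signal columns carry no replicate numbers. Array numbers in the column names fall into a low series (106, 107, 109 and 110) and a high one (886 and 904), each with both groups. With the series as a term 26 genes were called, Slc25a15 being lost (adjusted p = 0.0554). In the low series alone 26 were called, Slc25a15 (-0.20) and Slc25a44 (0.29) being lost and Slc25a53 (0.32) gained, and Slc25a15 and Slc25a30 (0.33) moved by over 1.5 times; Slc25a5 against Slc25a3 was 1.81. The high series holds 1 array a group and allows no test. The term was not run for the pairs. Dim genes, near background in 1 group or both, are the least precise.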
